A study of Gasterosteus aculeatus with 242 samples.

Results

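In the brains of juvenile threespine sticklebacks (Gasterosteus aculeatus), 150 transcripts differed more between families, relative to spread among siblings, than any other ranked transcript. They are described here in all 242 fish but 1, a shallow library left out by the rule, across 16 families, across fish within a family, and across the study's conditions. The 150 genes are those with the largest one-way F, the ratio of the variance between families to that within families, among 8080 ranked genes. The values behind F are log2(CPM + 1), where CPM is a gene's counts per 1000000 counts of the library and the mean of the fish's plate is subtracted. Ranked genes had a mean of at least 5 CPM (8549 of 22456 identifiers in all, of which 20626 had any count). A further 469 genes were left out because father-reared family 31 exceeded the mean of the other families by at least 0.5 on the log2 scale. Family differences therefore chose these genes, and their family values are given as a description with no test.

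The study concerns care by the father, who alone tends nest and fry in this species. Father-reared fish (Day 10 in the labels) stayed with their wild-caught father, and hand-reared fish (Day 0) were taken from him. At 6 to 8 months, open-field fish explored a pool for 10 minutes, met a model sculpin, a predator, and were killed 60 minutes after its simulated attack, whereas baseline fish were full siblings taken from the home tank within 30 minutes of their partner. All offspring came from fathers caught at Putah Creek, and a fish's RNA came from the left or right of its brain. The groups were 61 father-reared open-field, 57 father-reared baseline, 59 hand-reared open-field and 64 hand-reared baseline fish, with 12 to 18 fish per family. Each family had a single kind of rearing: families 07, 17, 19, 20, 26, 27, 31 and 35 were father-reared and families 04, 11, 22, 25, 30, 32, 39 and 40 were hand-reared. A difference between 2 single families of unlike rearing therefore cannot be told apart from rearing.

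Full siblings share both parents and, here, a kind of rearing, so a difference between families can hold inherited and shared environmental parts. Inherited differences in a transcript's level, tied to DNA variants in or near its gene, are well known in many animals. The deposited counts hold no genotypes. By the study's design some families have a parent in common, but the labels do not name them. The files do not pair the identifiers with gene names, so no function, chromosome or sequence is given for any gene and no marker of another cell type could be looked up.

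Families accounted for a median of 49.3% of the variance of a member over fish (range 44.6% to 89.05%), against a median of 12.3% in the 7930 other ranked genes. F ran from 12.1 to 121.97 with a median of 14.6, and its median in the other ranked genes was 2.11. Just inside the threshold lay ENSGACG00000003978 (F 12.09) and ENSGACG00000004121 (F 12.07), and just outside it ENSGACG00000009661 (F 12.03) and ENSGACG00000005778 (F 12.03), so that the list has no natural edge. Spread among siblings was alike in members and other genes, with a median SD within families of 0.34 and 0.35 log2 units. The range of the family means differed, at a median of 1.19 log2 units in members (0.33 to 7.71) and 0.47 in the other ranked genes. Members were also counted more deeply, with a median level of 94.1 CPM against 30.1 CPM in the other ranked genes. Neither the SDs nor the ranges were compared at like levels. The size of the family differences varied among members. The highest family mean was at least 8 times the lowest in 13 members (8.67%, against 0.52% of all ranked genes). It was at least 2 times the lowest in 88 members (58.7%, against 10.7%) and under 1.5 times in 18 (12%, against 61.1%).

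The first member, ENSGACG00000002233 (F 121.97), fell into 3 separated levels among fish. It had 0 to 3.65 CPM in 21 father-reared and 18 hand-reared fish, 108.2 to 211.95 CPM (median 164.6) in 32 father-reared and 65 hand-reared fish, and 273.8 to 434.9 CPM (median 331.5) in 65 father-reared and 40 hand-reared fish. No fish lay between these ranges. At the median depth of 1007692 counts a single count is worth about 1 CPM, so the lowest level is at most a few counts. The median of the top level was 2.01 times that of the middle level.

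Which levels occurred differed between families. All 16 fish of father-reared family 17 and all 18 fish of hand-reared family 11 were at the lowest level. Family 31 held 5 fish at the lowest and 10 at the middle level. All fish of hand-reared families 22, 30 and 40 were at the middle level. All fish of father-reared families 19, 20 and 27 and of hand-reared family 32 were at the top level. The remaining families held fish of the middle and top levels side by side: 6 and 9 fish in family 07, 6 and 10 in family 26, 10 and 5 in family 35, 7 and 9 in family 04, 6 and 8 in family 25, and 6 and 8 in family 39. No family held both the lowest and the top level. The family means in father-reared families were 261.6 CPM in 07, 0.848 in 17, 329.1 in 19, 327.5 in 20, 277.6 in 26, 336.8 in 27, 101.9 in 31 and 223.1 in 35. In hand-reared families they were 268.6 CPM in 04, 1.10 in 11, 158.9 in 22, 263.6 in 25, 165.3 in 30, 352.9 in 32, 238.6 in 39 and 171.04 in 40. A mean between the bands thus stood for a mixture of fish of different levels, not for fish of intermediate level.

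In the 7 families with fish of several levels, both conditions held fish of each level. Of 51 open-field fish in them 26 were at the top level and 23 at the middle level, against 23 and 28 of 54 baseline fish. The edgeR fit over all fish gave a log2 difference of 0.07 (SE 0.07, adjusted p = 0.99) between open-field and baseline fish. Males were at the top level in 20 of 52 fish and females in 29 of 53 fish of these families, with a log2 difference of -0.09 between males and females in the fit over all fish (SE 0.07, adjusted p = 0.53). A level was therefore shared by fish of both exposures and both sexes, and the fit detected no difference in either contrast.

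The other 5 members with a gap of at least 1 log2 unit between neighbouring fish showed the same kind of pattern. Such gaps, with at least 10 fish on either side, occurred in 6 of 150 members and in 14 of 8080 ranked genes. ENSGACG00000013882, which had with the first member the widest range of family means, was at 0 to 8.39 CPM in 66 father-reared and 83 hand-reared fish and at 83.8 to 1180 CPM in 52 father-reared and 40 hand-reared fish. All 15 fish of family 07 were high and all fish of families 27, 31, 35, 04, 25, 30 and 40 were low, and the 8 remaining families held both. Family 19 had 13 of 14 fish in the upper range and the highest family mean, at 396 ± 290 CPM (SD, n = 14).

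ENSGACG00000002997, named because its highest family stood far from the next, by 0.96 on the log2 scale, again had 3 levels. Levels were split where neighbouring fish lay at least 0.25 log2 units and 5 CPM apart. The gap below the middle level was wide, from 20.1 to 76 CPM, and the gap above it narrow, from 160.9 to 200.6 CPM. ENSGACG00000002997 lay at 0 to 20.1 CPM in 79 father-reared and 100 hand-reared fish, at 76 to 160.9 CPM (median 117.1) in 51 fish and at 200.6 to 261.9 CPM (median 244.0) in 11 fish. The top level was seen in 6 fish of father-reared family 27 and 5 fish of hand-reared family 22 and nowhere else, and both families also held fish of the other levels. Its median was 2.08 times that of the middle level. Families 07, 17, 19, 20 and 30 held low and middle fish, and in the other 9 families every fish was in the lowest range. Within that range siblings also differed: 6 fish of family 40 had 14.3 to 20.1 CPM and its 9 other fish 0 to 6.70 CPM, and 3 fish of family 30 had 12.4 to 18.6 CPM.

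ENSGACG00000008172 was at 0 to 5.27 CPM in 90 father-reared and 98 hand-reared fish and at 22.0 to 88.8 CPM in 28 father-reared and 25 hand-reared fish. Family 20 had 14 of its 15 fish in the upper range and a mean of 47.1 ± 22.7 CPM (SD, n = 15). Upper and lower fish were mixed in father-reared families 27 and 35 (7 of 12 and 7 of 15 fish high) and in hand-reared families 04, 32 and 40 (9 of 16, 8 of 15 and 8 of 15 high). Every fish of the other 10 families was low.

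Another pair of members was picked for such gaps after their values were seen. ENSGACG00000010145 was expressed in every fish, at 17.9 to 69.2 CPM in 62 father-reared and 67 hand-reared fish and at 189.2 to 972.8 CPM in 56 of each. All fish of families 07 and 25 were in the upper range and all of families 20, 26, 04 and 40 in the lower range. ENSGACG00000004265 was at 0 to 8.29 CPM in 86 father-reared and 91 hand-reared fish and at 30.7 to 90.3 CPM in 32 of each. All 14 fish of family 25 were high, and the high fish of the other families were 8 of 15 in family 07, 12 of 14 in family 19, 7 of 12 in family 27, 5 of 15 in family 31, 9 of 18 in family 11 and 9 of 15 in family 30.

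Most members had no such gap between fish, though levels that overlap would leave no gap and were not looked for. ENSGACG00000001750 (F 45.3) averaged 376 ± 75.96 CPM in family 26 (SD, n = 16), the highest, and 80.3 ± 27.4 CPM in family 39 (SD, n = 14), the lowest. Its means in the other father-reared families were 154.8 CPM in 07, 296.5 in 17, 287.9 in 19, 304.9 in 20, 318.3 in 27, 323.8 in 31 and 148.3 in 35. In the other hand-reared families they were 252.7 CPM in 04, 302.2 in 11, 155.8 in 22, 163.02 in 25, 260 in 30, 375.4 in 32 and 242.6 in 40. The means of families 07, 35, 22 and 25 thus lay between that of family 39 and those of the rest. Single fish of these families spread widely, from 73.6 to 423.7 CPM in family 07. They overlapped fish of family 39 and of families with higher means, so the middle means need not stand for fish of middle level.

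ENSGACG00000004139 (F 35.03) averaged 31.3 ± 9.71 CPM in family 26 and 4.85 ± 1.57 CPM in family 39. Its next lowest families were 04 at 10.8 ± 6.14 CPM (n = 16) and 19 at 13.5 ± 4.20 CPM (n = 14). The highest fish of family 39, at 7.16 CPM, lay below every fish of the other families except 19 and 04. The other means in father-reared families were 29.3 CPM in 07, 28.2 in 17, 27.0 in 20, 25.1 in 27, 28.1 in 31 and 20.8 in 35. In hand-reared families they were 26.0 CPM in 11, 27.6 in 22, 22.05 in 25, 24.1 in 30, 18.2 in 32 and 28.7 in 40.

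ENSGACG00000013156 (F 27.1) averaged 54.7 ± 8.65 CPM in family 40 (SD, n = 15), the highest, and was lowest in families 25 at 12.99 ± 3.93 CPM (n = 14) and 07 at 14.5 ± 5.06 CPM (n = 15). Its means in the other father-reared families were 42.5 CPM in 17, 26.1 in 19, 42.6 in 20, 33.2 in 26, 28.4 in 27, 40.8 in 31 and 47.7 in 35. In the other hand-reared families they were 30.3 CPM in 04, 51.03 in 11, 34.1 in 22, 38.5 in 30, 44.5 in 32 and 23.6 in 39. Families 25 and 07 were again the lowest for ENSGACG00000009872 (F 24.6), at 5.29 ± 2.24 and 6.44 ± 1.87 CPM, and family 35 was the highest at 26.0 ± 6.36 CPM (n = 15). Its other father-reared means were 13.5 CPM in 17, 13.9 in 19, 7.70 in 20, 17.6 in 26, 12.5 in 27 and 13.3 in 31, and its other hand-reared means 22.0 CPM in 04, 10.7 in 11, 10.61 in 22, 22.9 in 30, 20.8 in 32, 21.01 in 39 and 15.5 in 40. Both genes therefore shared their low families and not their high one.

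Other members ranked high through a narrow spread among siblings. ENSGACG00000020929 (F 31.2) averaged 3193 ± 322 CPM in family 27 (SD, n = 12) and 1910 ± 257 CPM in family 39, a ratio of 1.67, with a within-family SD of 0.17 log2 units. Its means in the other father-reared families were 1926 CPM in 07, 2943 in 17, 2817 in 19, 2967 in 20, 2818 in 26, 2396 in 31 and 2003 in 35. In the other hand-reared families they were 2743 CPM in 04, 2833 in 11, 2377 in 22, 2145 in 25, 2936 in 30, 2952 in 32 and 3013 in 40. Families 39, 07, 35 and 25 were its lowest, as they were, with family 22, for ENSGACG00000001750. ENSGACG00000007202 (F 27.6) averaged 364 ± 33.5 CPM in family 30 (n = 15) and 214.3 ± 38.5 CPM in family 11 (n = 18), a ratio of 1.70. Its other means were 294 CPM in 07, 300.2 in 17, 292 in 19, 290.2 in 20, 260.4 in 26, 320.2 in 27, 244 in 31 and 340.1 in 35 among father-reared families, and 360.3 CPM in 04, 331 in 22, 327 in 25, 230.8 in 32, 289.6 in 39 and 346 in 40 among hand-reared families.

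ENSGACG00000011662 (F 23.6) was lowest in family 27, at 820 ± 359 CPM, where single fish ran from 378.9 to 1338 CPM, and highest in family 25 at 1818 ± 220.65 CPM. The other father-reared families averaged 1733 CPM in 07, 1816 in 17, 1803 in 19, 1696 in 20, 1742 in 26, 1161 in 31 and 1298 in 35. The other hand-reared families averaged 1107 CPM in 04, 1437 in 11, 1746 in 22, 1187 in 30, 1462 in 32, 1640.4 in 39 and 1761 in 40. Families 27, 04, 31, 30 and 35 were the low ones, and families 17, 19, 40, 22, 26, 07, 20 and 39 lay within 1 SD of the mean of family 25.

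Family 20 was the low family in both members whose lowest family stood furthest from the next. ENSGACG00000001862 averaged 16.4 ± 14.8 CPM there (SD, n = 15; 0 to 46.1 CPM), and the other family means lay between 39.2 and 60.3 CPM. ENSGACG00000001578, a gene of low counts, averaged 0.189 ± 0.399 CPM in family 20, where no fish exceeded 1.15 CPM. Its next lowest mean was 4.32 ± 2.57 CPM in family 39. Over all members, the family mean was highest in a father-reared family in 72 (48%, against 44.8% of all ranked genes) and lowest in a father-reared family in 74 (49.3%, against 63.7% of all ranked genes). Family 39 was the lowest for 13.3% of the members and 4.96% of all ranked genes, and family 31 for 13.3% and 21.8%. Families 27 and 25 were the highest for 10.7% of the members each, against 7.13% and 7.96% of all ranked genes. Genes high in father-reared family 31 were left out of the ranking, which in part sets these counts.

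Abundant transcripts were among the members. Of 150 members 13 had a mean of at least 1000 CPM (8.67%), against 2.09% of the 8080 ranked genes. The highest was ENSGACG00000020942 with a mean of 24150 CPM, 31152 CPM in family 22 and 18452 CPM in family 07, a ratio of 1.69. All members together took 7.59% (family 31) to 9.23% (family 22) of a family's counts.

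The family differences recurred between plates, which held different fish of all 16 families (90, 91 and 60 fish; the leading digit of a library name is read as its plate). Within a single plate the median F of the members was 5.96, 6.30 and 4.85, and that of the other ranked genes 1.37, 1.48 and 1.36. The family means of a member in plate 1 and in plate 2 had a median Pearson r of 0.85 over 16 families, and the other ranked genes one of 0.33. In 98.7% of the members r exceeded 0.5 between every pair of plates, as it did in 14.3% of the ranked genes. All 3 plates had a part in choosing these members, so their high values within and between plates follow in part from the choice.

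Lists were also chosen by the same rule in some fish and measured in others. Their median F in each plate was lower than that of the members (5.96, 6.30 and 4.85 in plates 1, 2 and 3). Their r for a plate is with the other plates together and so is unlike the r between single plates. This check was added after the data had been seen. For the 150 genes chosen without plate 1, the median F in plate 1 was 5.22, against 1.37 in the other genes, and their family means in plate 1 had a median r of 0.87 with those of the plates that chose them. Without plate 2 the values in plate 2 were 5.29 against 1.48 and an r of 0.87, and without plate 3 the values in plate 3 were 4.30 against 1.36 and an r of 0.84. Genes chosen in baseline fish had a median F of 6.84 in open-field fish, against 1.59 in the other genes, with an r of 0.87. In all 150 genes of each of these lists r was above 0. The fish of a family measured here still share parents and rearing with those that chose the genes.

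Over the members the 16 families fell into 8 pairs, each of 1 father-reared and 1 hand-reared family. For this, each member's family means were scaled to a mean of 0 and an SD of 1 over families, and families were correlated over the 150 members. Each family of the 8 pairs was the nearest of the other. The pairs were 27 and 30 (r = 0.54), 07 and 25 (0.52), 31 and 11 (0.50), 26 and 32 (0.46), 17 and 22 (0.46), 20 and 40 (0.46), 35 and 04 (0.36), and 19 and 39 (0.32). Among the other pairs, hand-reared families 40 and 30 had an r of 0.40, above that of 35 and 04 and that of 19 and 39. The next of the other pairs had 0.07. The median over all pairs but the 8 was -0.11. These values have no test, since family differences chose the members.

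The pairs were compared in parts of the fish, first over the same members, which all these fish had a part in choosing. The same 8 pairs were mutually nearest in plate 1, in plate 2, in open-field fish and in males. In plate 3, in baseline fish and in females 7 of the 8 were, the pair of families 20 and 40 being the exception. Without the 13 abundant members the same 8 pairs appeared. With lists chosen without plate 1 and without plate 2 and compared in the plate left out, 8 of the 8 pairs were found, and with the list chosen without plate 3 and compared in plate 3, 6 of them. With genes chosen in baseline fish and compared in open-field fish 8 were found, and the other way round 6. The 7930 other ranked genes gave 7 mutually nearest pairs, of which 6 were the same and the other joined hand-reared families 30 and 40. For them the median r of the 8 pairs was 0.15 and that of the other pairs -0.08.

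Single fish followed their family closely. Each fish was nearest, over the members, to the mean of its own siblings without it. For all but 23 fish the next nearest family was the partner family of the pair. These fish took part in choosing the members, so their nearness follows in part from the choice, and it was not measured over other genes. The stepped genes, which as members had a part in forming the pairs, followed them in part. ENSGACG00000004265 had high fish in families 07 and 25, in 31 and 11 and in 27 and 30, and in family 19 without its partner 39. ENSGACG00000008172 had high fish in families 20 and 40 and in 35 and 04, and in families 27 and 32 without their partners. The other stepped genes also split pairs: for ENSGACG00000002233 all fish of family 17 were at the lowest and all of family 22 at the middle level, and for ENSGACG00000013882 all of family 07 were high and all of family 25 low.

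The members shared no single pattern over families, and within families they hardly varied together. Over 11175 pairs of members, the family means had a median r of 0.03 over 16 families (5th to 95th percentile -0.47 to 0.51). The values of fish within families had a median r of 0.004 (5th to 95th percentile -0.13 to 0.14). The 3 members most like ENSGACG00000002233 were ENSGACG00000017358 (r = 0.76 over 16 families), ENSGACG00000015669 (0.73) and ENSGACG00000012745 (0.68). Within families their r with it was 0.06, 0.07 and 0.08, pooled over all families, of which 9 held a single level of ENSGACG00000002233. Both ENSGACG00000017358 and ENSGACG00000015669 were lowest in family 11, at 194.2 ± 20.998 and 161.01 ± 36.03 CPM (SD, n = 18). ENSGACG00000012745 was lowest in family 17, at 180 ± 61.1 CPM (SD, n = 16).

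A set of 4 genes was an exception. Grouping members by their family means at a mean r of 0.6 gave 5 sets of at least 4 genes, and in 4 of them the median r within families was between -0.04 and 0.07. The remaining set held ENSGACG00000020942, ENSGACG00000020947, ENSGACG00000020951 and ENSGACG00000001751, with a median level of 3561 CPM (ENSGACG00000020951 was the lowest, at 458 CPM). Its median r was 0.89 over family means and 0.53 among siblings within families. These 4 genes were on average highest in family 40 and lowest in family 07. The sets were chosen from these values and have no test.

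Sex, exposure and brain side vary within every family and were not used to choose the members. They were tested by edgeR's quasi-likelihood F-test over 8549 genes, with family as a block and plate and the other factors as terms. A gene is called at a Benjamini-Hochberg adjusted p under 0.05.

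Males and females differed in 11 of 150 members (7.33%), against 13% of all genes tested. Of the members 6 were higher in males, against 8.15% of all genes tested, and 5 were lower, against 4.85%. The fits held 57 father-reared and 66 hand-reared males, and 61 father-reared and 57 hand-reared females. The second-ranked member, ENSGACG00000001750, had the largest called difference: 221.98 ± 89.6 CPM in males (SD; 47.3 to 450 CPM) and 287 ± 109.2 CPM in females (SD; 78.3 to 558.8 CPM). Its log2 difference between males and females was -0.28 (SE 0.04, edgeR adjusted p = 7.76e-10), and its family means were lower in males in 14 of 16 families. The sexes overlapped widely over all fish, but not within families 17, 30, 32 and 40. In family 40, for example, males had 224.5 ± 17.3 CPM (SD, n = 11) and females 292 ± 17.96 CPM (SD, n = 4).

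The other called sex differences were smaller in size. ENSGACG00000003978 had a mean of 27.2 ± 12.6 CPM over males and 23.7 ± 10.2 CPM over females (log2 difference 0.22, SE 0.07, edgeR adjusted p = 0.014), and was higher in males in 14 of 16 families. For ENSGACG00000009033 the means were 66.7 ± 23.8 CPM over males and 56.6 ± 20.4 CPM over females (log2 difference 0.17, SE 0.05, edgeR adjusted p = 0.0051), with the mean of males higher in 11 of 16 families. Both kept their direction in each plate alone but passed the test in no single plate, where fewer fish were fitted. Over all members the sex difference had a median of 0.01 log2 units, as over all genes tested.

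In a single member the sex difference itself differed between families. The family-by-sex term was called in ENSGACG00000001261 (edgeR adjusted p = 4e-08), 1 of 150 members against 0.339% of all genes tested. In families 20, 39, 25, 40, 19 and 07 the male-minus-female difference in mean log2(CPM + 1) lay between -1.77 and -0.72. In the other 10 families it lay between -0.20 and 0.51. In family 39 males had 12.6 ± 2.79 CPM (SD, n = 9; 8.18 to 15.5 CPM) and females 31.7 ± 7.12 CPM (SD, n = 5; 22.4 to 42.1 CPM). In family 40 males had 24.6 ± 4.92 CPM (n = 11) and females 50.8 ± 10.9 CPM (n = 4). Males and females did not overlap in families 39, 40 and 07.

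The 6 families make up 3 of the 8 pairs of nearest families, 07 and 25, 20 and 40, and 19 and 39. ENSGACG00000001261 is itself among the members that formed the pairs, and the match was not tested. Other families were unlike these 6. In family 35 the mean was 73.6 ± 14.5 CPM in males (SD, n = 6) and 51.9 ± 13 CPM in females (SD, n = 9), and in family 30 the values were 62.2 ± 14.4 CPM in males (n = 9) and 63.6 ± 5.05 CPM in females (n = 6). In family 20 some males were at 0 CPM and the highest male had 27.2 CPM, against 14.1 to 39.8 CPM in females. Over all fish the mean of males was 34.7 ± 19.2 CPM and that of females 40.6 ± 15.4 CPM (log2 difference -0.24, SE 0.06, edgeR adjusted p = 0.0023), lower in males in 9 of 16 families. That difference over all fish was not called in 5 of 12 alternative fits, with an adjusted p of 0.47 in father-reared fish alone and 0.0014 in hand-reared fish alone.

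No member was called for the open field, for which few genes were called at all. edgeR called 0 of 150 members between open-field and baseline fish, against 0.55% of all genes tested. limma-voom and DESeq2 also called 0 members, against 0.597% and 0.62% of all genes. At an unadjusted p under 0.05 were 9 of 150 members and 519 of 8549 genes. The log2 differences of the members between open-field and baseline fish ran from -0.29 to 0.31. Their median size was 0.03, as over all genes tested, and their median SE 0.04. ENSGACG00000019649 had the lowest p (log2 difference 0.26, SE 0.08, edgeR adjusted p = 0.19). The estimate was less precise for ENSGACG00000013882, a gene with separate levels, with a log2 difference of 0.10 and an SE of 0.23.

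Nor was the response to the open field shown to vary between families in any member. The family-by-exposure term was called in 0 of 150 members and in 0% of all genes tested by edgeR. An unadjusted p under 0.05 was seen in 13 of 150 members and 368 of 8549 genes. That share was larger in the members, a difference that was not tested. limma-voom called 0 members and 2 of 8549 genes. The lowest p was again that of ENSGACG00000019649 (edgeR adjusted p = 0.098).

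The right and left sides of the brain gave no called member (0 of 150 by edgeR, against 0.152% of all genes tested, and 0 by limma-voom and DESeq2, against 0.14% and 0.164%). At an unadjusted p under 0.05 were 13 members and 724 of 8549 genes. The most abundant member, ENSGACG00000020942, came nearest, with a log2 difference of -0.08 between right and left (SE 0.02, edgeR adjusted p = 0.18).

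Rearing is nested in family and so is part of what chose the members, and nothing is read from its values. On counts summed per family, 8 father-reared against 8 hand-reared families, edgeR called 0 of 150 members and 0% of all genes tested, with 3 members and 606 genes at an unadjusted p under 0.05. DESeq2 called 0 members and 25 of 8549 genes (0.292%). Rearing took a median of 1.71% of the sum of squares between families in members and 3.64% in the other ranked genes. The difference between father-reared and hand-reared families had a median SE of 0.15 log2 units in members and 0.07 in all genes tested. In the family term itself, the contrast that chose them, all 150 members were called and 59.7% of all genes tested.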

How the data were processed

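Counts per Ensembl gene were deposited by the authors for each library and lane of 242 fish (3′ tag sequencing of the left or right brain, in which a count stands for a transcript end), in 1452 columns. FastQC 0.11.8, STAR 2.2.3a and HTSeq 0.9.1 are named, per the submitters' processing notes. What genome build and annotation were used, and whether duplicates were removed or strand was counted, is not given in the sources used here, so counts of near-identical copies, overlapping genes and antisense pairs are uncertain. Lanes (6 per library) were added up, and 0 columns belonged to no labelled fish. A minimum of 500000 counts left out 1 hand-reared open-field fish (2055 counts), and the others had 706544 to 1529047 counts. The RefSeq table at hand (52177 genes) matched 0 of the 22456 identifiers, so the symbol lists for cell types and pathways were not used.

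Families were read from the number that starts a fish's code, and plates from the digit that starts a library's name. Values per fish are CPM by library total, on the log2 scale with a pseudocount of 1. Tests used edgeR 4.0.16 (R 4.3.3) on the counts as deposited, with TMM scaling, quasi-likelihood F-tests and Benjamini-Hochberg adjustment over all 8549 genes of at least 5 CPM. Standard errors are the size of the log2 difference divided by the square root of F. The tests of exposure and of family by exposure were checked on simulated data, and the other tests were not. Alternatives used limma 3.58.1, DESeq2 1.42.0, other filters, terms and subsets of fish. Each library is a separate animal. Since whole families were reared alike, rearing was tested on counts summed per family.

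The members, the lists and the tests were chosen with earlier results of these data known. Named are the 8 members with the largest F, the 2 genes on either side of the threshold, the 2 with the widest fold between families, the 2 whose highest and the 2 whose lowest family stands furthest from the next, up to 2 called members per direction and contrast, the 3 most like the first member, and others said in the text to be chosen later.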

Additional observations from a re-analysis of the deposited data

Results flagged for a closer look

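Within each kind of rearing, the 8 family values were searched for a single family far from the other 7. The values were the family means of each named gene, the members' share of counts and the median library total. Of 44 sets of 8 families looked at 6 had such a family. Chance at 1 in 20 would give about 2.2, but that is no yardstick here, since the genes were chosen for family differences. ENSGACG00000008172 and ENSGACG00000001862 were named because a family stood apart, and ENSGACG00000017358 and ENSGACG00000015669 because they resembled the first member.

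ENSGACG00000015669 was far lower in family 31 than in the other father-reared families, at 212.51 CPM against 262.54 CPM in the next, family 26. It was also far lower in family 11 than in the other hand-reared families, at 161.01 CPM against 277.21 CPM in family 32. Families 31 and 11 are each other's nearest over the members. ENSGACG00000017358 was likewise lowest in family 11, at 194.17 CPM against 246.46 CPM in family 40.

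Family 20 stood apart in opposite directions in 2 genes. It was the highest father-reared family for ENSGACG00000008172, at 47.114 CPM against 17.857 CPM in family 27, and the lowest for ENSGACG00000001862, at 16.356 CPM against 43.047 CPM in family 17. ENSGACG00000009661, which missed the list by a single rank, was highest among hand-reared families in family 39, at 747.65 CPM against 641.55 CPM in family 11.

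The sex difference of ENSGACG00000001261 differed between families, with an edgeR adjusted p of 4e-08 for the family-by-sex term, as described above.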

How the results depend on the processing

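Of 150 members 68 stayed on the list when the 469 genes high in family 31 were kept. Genes of those 469 took all the other places, so the rule had left out many strong family differences. Under the other 28 of 29 settings (scaling, pseudocount, floor, fish or families left out) 68.7% to 97.3% stayed, with 120 to 140 members without each family in turn. The 11 members called between males and females became 6 with no family block (10.7% of all genes tested, against 13% over all fish with the block), 2, 5 and 2 in plates 1, 2 and 3 alone (4.92%, 6.19% and 4.09%), and 3 each in father-reared and in hand-reared fish alone (8.98% and 6.47%), and 8 to 12 in the other 6 settings. Fewer fish were fitted in the single plates and rearing groups, and for the family block the cause was not tested. ENSGACG00000001750 kept its sex call in 12 of 12 alternatives (log2 difference -0.31 to -0.22), ENSGACG00000001261 and ENSGACG00000009033 in 7 each and ENSGACG00000003978 in 6, and none of the 4 changed direction.

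For the open field 0 members were called in 14 of 15 alternatives, and 1 in plate 2 alone (ENSGACG00000016593, log2 difference 0.17, adjusted p = 0.0055), which had an adjusted p of 0.47 over all plates and a log2 difference of -0.06 in plate 1 alone. The family-by-sex term was called in 2 members by limma-voom, the second being ENSGACG00000006433 (adjusted p = 0.017). Brain side, family by exposure and rearing gave 0 members in all their alternatives. With the sibling numbers as a replicate block 0 members were called for exposure, as without it. Between open-field and baseline siblings with the same number the deviations had a median r of 0.005 (-0.23 to 0.18), and 795 other pairings of siblings one of -0.003, so the numbers were not taken to pair fish. Families held 12 to 18 fish, which limits the precision of values of the sexes within a family, and genes near 5 CPM rest on about 5 counts a fish.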
